A study of Mus musculus with 12 samples.

Results

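The genes described here are 40 transcription factors and nuclear receptors of the liver, measured in the livers of mice with and without the glucagon gene Gcg. They were taken by symbol from a fixed list, with the condition that their mean expression over all libraries reached 0.5 RPKM (reads scaled by transcript length and by library depth, a level that can be compared between genes because it is taken per length). All 40 listed genes were in the table of 24475 genes, and all 40 reached that mean, as did 11347 genes in all. The study addressed the part that glucagon plays in liver zonation, the division of labour between hepatocytes near the portal and near the central vein. Livers of fed mice were flash frozen and their polyadenylated RNA was sequenced as strand-specific libraries. The WT group held 6 libraries, numbered 1 to 6, from livers with the genotype WT. The Gcg KO group held 6 libraries, numbered 7 to 12, from livers of Gcg-/- mice, and how the allele was made is not stated. Both groups were fed, and the labels name no strain, sex, age or batch. Nothing in the labels says that each library is a different animal, so the p-values reflect the spread between these samples alone, and that spread may be technical.

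Hepatocytes hold their identity through a network of liver-enriched transcription factors, among them HNF4A, C/EBPα and the FOXA proteins, which bind together at the enhancers of liver genes and at one another's genes. Nuclear receptors are transcription factors whose activity is set by small ligands such as bile acids, oxysterols, drugs, retinoids, thyroid hormone and glucocorticoids, and many of them bind DNA with an RXR partner. Factors such as FOXO1, CREB1, CREB3L3 and KLF15 link these programmes to feeding and fasting, and much of their control is exerted on the protein, by phosphorylation, cleavage or movement in and out of the nucleus, which RNA levels do not show.

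The depth of the libraries was estimated at 10300000 to 15000000 reads, at which 0.5 RPKM on a transcript of 2 kb is worth 10.3 to 15 reads. Gcg was listed at 0 in all 12 liver libraries, so it could not serve to check the genotype labels here. WT 6, Gcg KO 10 and Gcg KO 12 were set apart as a group with earlier results of these data known. They had the 3 highest values on the first principal component of all tested genes (27.9% of the variance). These were 16.99, 28.3 and 28.8, against -21.85 to 6.99 in the other 9. WT 6 lay nearer to Gcg KO 9 than to Gcg KO 10 there, so this component does not mark a separate cluster. On the second component (19%) WT 6 was at 21.66, Gcg KO 10 at 3.506 and Gcg KO 12 at 1.104. These 3 libraries include both genotypes, and several results below are given with and without them. Results without them rest on this grouping. The 10 hepatocyte markers summed to 50930 to 65730 RPKM in WT and 47710 to 62380 RPKM in Gcg KO. The neutrophil markers summed to 5.75, 3.94 and 5.28 RPKM in the 3 libraries and to 23.5 to 97.6 RPKM in the other 9. That difference was not tested. Between Gcg KO and WT, 0 of the 6 neutrophil markers that could be tested passed, also without adjustment. Markers of other cell types, WT before Gcg KO, summed to 160 to 269 and 188 to 286 RPKM for Kupffer cells (0 of 14 past the threshold, also without adjustment) and to 137 to 173 and 141 to 190 RPKM for stellate cells, of which 1 of 14, Rgs5, rose. Endothelial markers summed to 138 to 183 RPKM in WT and 148 to 219 RPKM in Gcg KO, and 1 of 17, Lyve1, rose. Cholangiocyte markers summed to 21 to 34.5 RPKM in WT and 42.9 to 255 RPKM in Gcg KO, without overlap, and 1 of 5, Spp1, rose. Without Spp1 those sums were 8.68 to 10.7 and 9.32 to 12.4 RPKM. In bulk tissue fewer cells of a type and less RNA per cell cannot be told apart.

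The data gave no call for any of the factors between WT and Gcg KO. In limma, 0 of the 40 passed an adjusted p of 0.05, where 439 of the 11347 tested genes did (3.87%), 221 higher (1.95%) and 218 lower (1.92%) in Gcg KO. At an unadjusted p below 0.05 there were 5 of 40 (12.5%), against 15.7% of all tested genes, a share near that background. For 0 of 40 were the 6 Gcg KO values separate from the 6 WT values, against 3.09% of all tested genes. The log2 fold change of Gcg KO over WT was above 0 for 14 and below 0 for 26, with a median of -0.05. Over all 11347 tested genes it was above 0 for 6161 and below 0 for 5186, with a median of 0.01. The median size of the log2 fold change, whatever its sign, was 0.10, the same as over all tested genes (0.10).

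The intervals set how much change could have gone unseen. The 95% confidence interval of the log2 fold change lay wholly within a 1.5-fold difference either way for 29 of 40 factors (72.5%), against 84.6% of all tested genes. It lay within a 2-fold difference for 36 of 40 (90%), against 95.1% of all tested genes. The 4 whose intervals reached beyond 2-fold were Foxa1, Foxa2, Onecut1 and Nfil3. Each of these 4 also varied widely between libraries of 1 genotype. Over the 12 libraries the highest value of a factor was a median of 1.93 times its lowest, against 1.65 times over all tested genes, and the ratio ran from 1.19 for Rxrb to 18.8 for Onecut1.

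**Figure D1:**
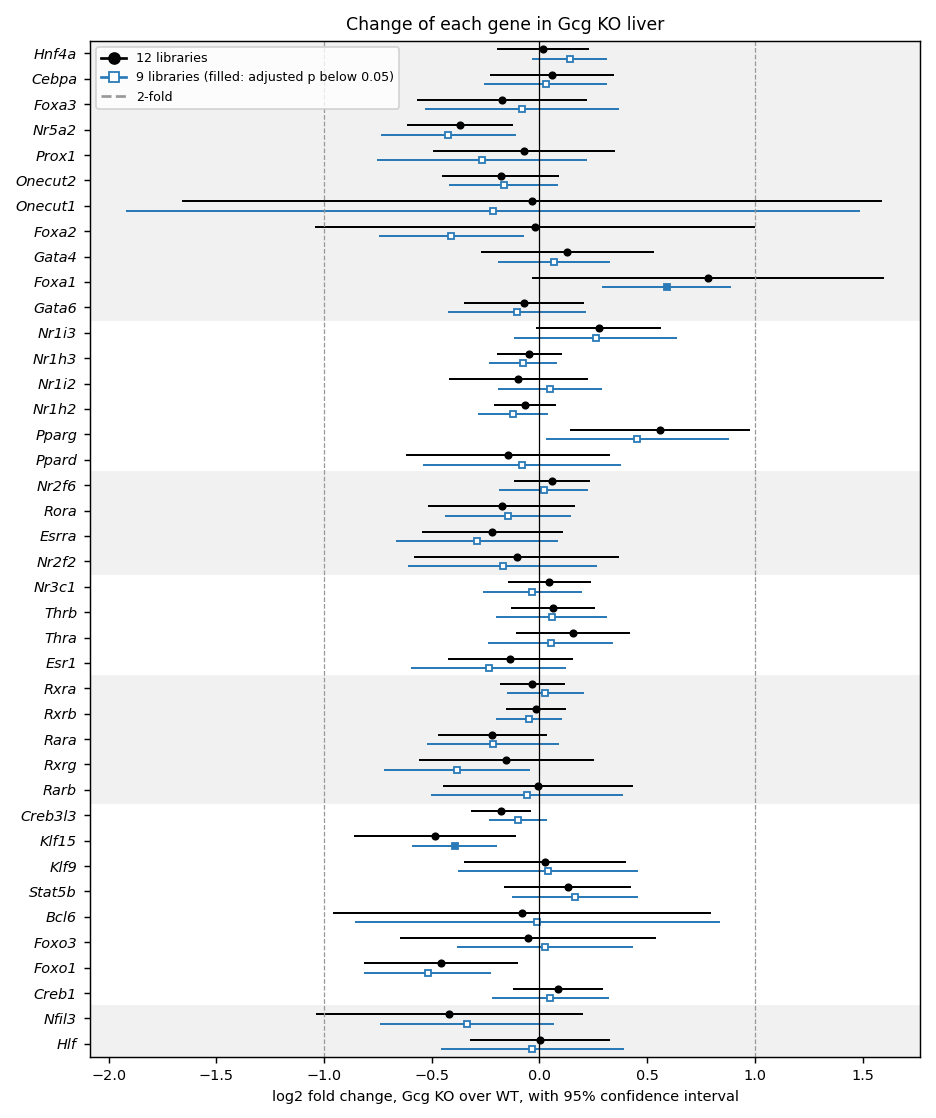
Log2 fold change of each factor, Gcg KO over WT, with its 95% confidence interval as a line. Black points are the fit to 12 libraries, in which 0 of 40 passed, and blue squares the fit to the 9 libraries other than WT 6, Gcg KO 10 and Gcg KO 12, filled where the adjusted p was below 0.05 (Foxa1 and Klf15). The 9 come from a grouping made with earlier results of these data known. Grey bands separate the 7 groups of factors by role, and dashed lines mark a 2-fold difference. In the fit to 12 libraries 35 of 40 intervals cross 0, and those of Onecut1, Foxa2, Bcl6 and Foxa1 are the widest.

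Levels of these genes spanned 121-fold in WT liver. Hnf4a was highest and Rarb, a retinoic acid receptor, lowest. At a WT mean of 50 RPKM or more stood 5 factors (Hnf4a, Creb3l3, Cebpa, Rxra and Klf15), 16 lay between 10 and 50 RPKM, 17 between 2 and 10 RPKM, and 2 below 2 RPKM (Gata6 and Rarb). Placed in order of their WT means, only 2 of the 39 neighbouring pairs had WT ranges that did not overlap, Hnf4a over Creb3l3 and Nr1h3 over Nr2f6. The order of the other neighbours is therefore within the spread between libraries.

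**Figure D2:**
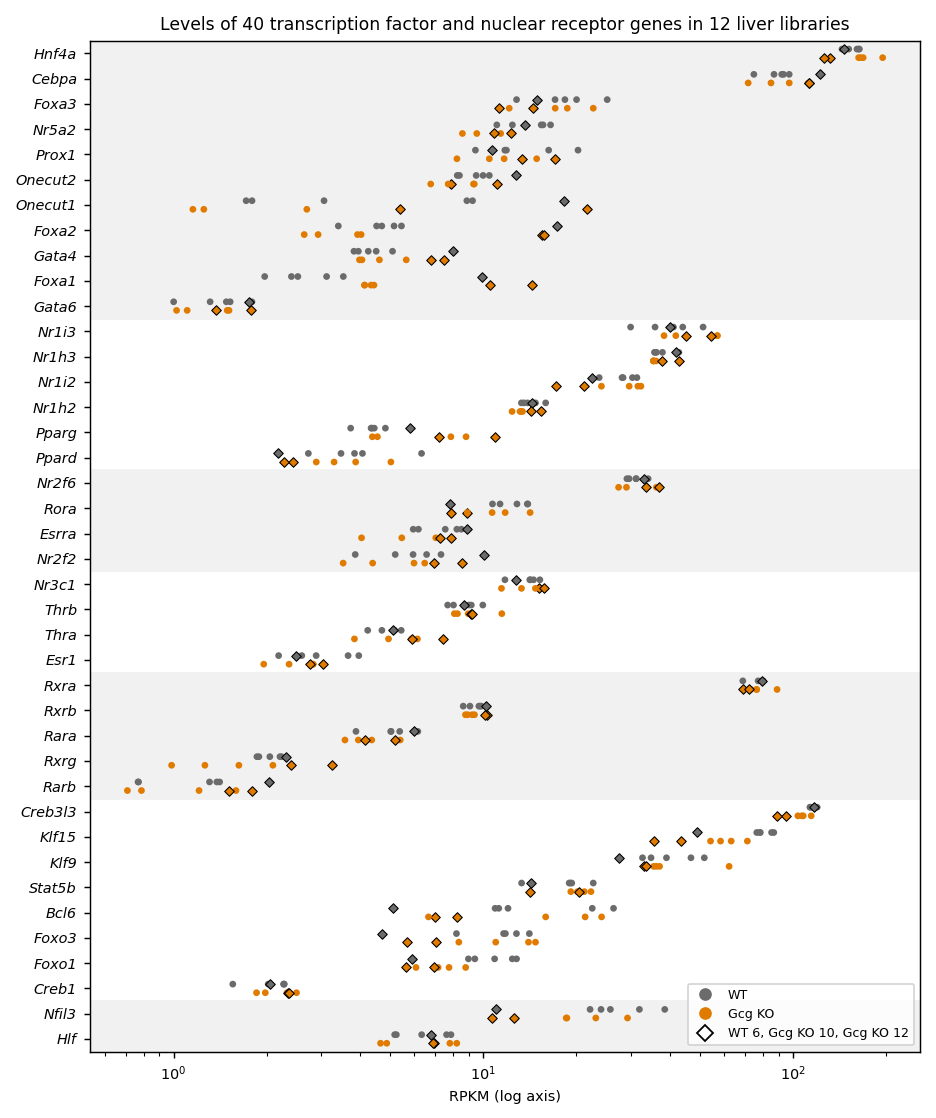
RPKM (log axis) of each factor in each library, grey for WT and orange for Gcg KO. Diamonds mark WT 6, Gcg KO 10 and Gcg KO 12, and grey bands separate the 7 groups by role. Grey and orange points overlap for every factor, and the diamonds lie to the right of all circles for Foxa1 and Foxa2 and to the left of them for Klf15 and Nfil3.

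Hnf4a, which encodes the nuclear receptor HNF4A that maintains hepatocyte identity, was the most even of the core identity factors, its highest library at 1.54 times its lowest. In WT it had a lowest, median and highest level of 144, 156 and 164 RPKM, and in Gcg KO of 127, 164 and 195 RPKM. The Gcg KO libraries lay on both sides of the WT range, 2 below it and 3 above it. Those below it were Gcg KO 10 (131.7 RPKM) and Gcg KO 12 (126.6 RPKM), both among the 3 libraries set apart. The log2 fold change of Hnf4a was 0.02 (95% confidence interval -0.19 to 0.23, adjusted p = 0.965 in limma). In the 9 libraries it was 0.14 (-0.03 to 0.31, adjusted p = 0.431). The gene lies on chromosome 2 from 163506811 to 163572907 (GRCm38, plus strand).

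None of the other core identity factors passed in the fit to all 12 libraries. Cebpa encodes C/EBPα, which drives metabolic genes of the mature hepatocyte. It had 94.5 ± 15.7 RPKM (SD, n = 6) in WT against 98.7 ± 17.3 in Gcg KO. Foxa3, the FOXA gene expressed most in adult liver, had 18.1 ± 4.31 and 16.1 ± 4.32 RPKM. Prox1, a homeobox factor of hepatoblasts and hepatocytes, had 13.4 ± 4.08 and 12.6 ± 3.17 RPKM. None of these groups was separate from the other. Onecut2, a cut-homeobox factor close to HNF6, had 9.90 ± 1.67 and 8.69 ± 1.55 RPKM. Gata4 and Gata6 encode zinc finger factors that act early in liver development, and Gata4 is also expressed by liver endothelial and stellate cells. Gata4 had 4.94 ± 1.57 RPKM in WT against 5.43 ± 1.46 in Gcg KO. Gata6 had 1.48 ± 0.295 and 1.38 ± 0.281 RPKM. The stellate and endothelial marker sums given above were higher in some Gcg KO libraries, and their part in the Gata4 values was not tested.

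Nr5a2 encodes LRH-1, a nuclear receptor that controls bile acid and cholesterol genes, and its difference had the smallest p of the 40. WT libraries had a lowest, median and highest level of 11.1, 14.6 and 16.5 RPKM, and Gcg KO libraries of 8.57, 11.1 and 12.3 RPKM. All 6 Gcg KO values lay below the WT median, and 3 lay below the WT minimum, so the groups overlapped. The log2 fold change was -0.37 ± 0.11 (SE), which did not pass over all genes (limma, adjusted p = 0.0971). It passed with estimated library weights and without WT 1, where the lower of the 2 adjusted p-values was 0.0464, and did not pass in the 9 libraries (-0.42, adjusted p = 0.157). Over all alternatives its adjusted p ran from 0.0464 to 0.201. Nr5a2 lies on chromosome 1 from 136842562 to 136960448 (minus strand).

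Foxa1 and Foxa2 encode forkhead factors that open chromatin at liver enhancers, and both were far higher in WT 6, Gcg KO 10 and Gcg KO 12 than elsewhere. The 250 bases upstream of their RefSeq starts (GRCm38.p6, both genes on the minus strand) are shown because the genes were high in the same 3 libraries. Capitals mark the matches to the motifs searched, given 5′ to 3′ along the gene's strand. In Foxa1 (chr12:57546112-57546361) the capitals are a forkhead motif, TGTTTAC read on the other strand, from -141 to -135 of the start. In Foxa2 (chr2:148046970-148047219, the first of its RefSeq starts) they are ATTGATT, a motif of HNF6, the product of Onecut1, from -213 to -207.
Foxa1: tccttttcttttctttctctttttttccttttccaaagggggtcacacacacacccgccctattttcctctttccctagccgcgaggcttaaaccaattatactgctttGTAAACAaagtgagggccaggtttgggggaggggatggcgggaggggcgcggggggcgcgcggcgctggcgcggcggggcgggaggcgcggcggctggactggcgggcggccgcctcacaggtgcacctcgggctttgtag
Foxa2: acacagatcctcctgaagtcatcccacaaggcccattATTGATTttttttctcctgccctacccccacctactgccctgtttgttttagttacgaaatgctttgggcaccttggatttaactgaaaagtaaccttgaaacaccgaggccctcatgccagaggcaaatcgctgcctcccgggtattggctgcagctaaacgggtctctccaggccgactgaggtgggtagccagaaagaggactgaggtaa
The forkhead motif was in 3.17% and the HNF6 motif in 2.61% of all 32851 RefSeq promoters of that length. Such a match describes letters in this window and is not a measured binding site. The Foxa1 start used lies inside the gene's RefSeq span, which ends at 57548029. The bases beyond that end were not searched.

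Foxa1 had a lowest, median and highest level of 1.97, 2.82 and 9.91 RPKM in WT, and of 4.14, 4.39 and 14.4 RPKM in Gcg KO. The highest WT value was that of WT 6, and the highest pair of Gcg KO values, 10.5 and 14.4 RPKM, were those of Gcg KO 10 and 12. The 6 Gcg KO values all lay above the WT median, but WT 6 exceeded 4 of them. Over the 12 libraries the log2 fold change was 0.78 ± 0.38 (SE, adjusted p = 0.339). In the 9 libraries Foxa1 was 2.71 ± 0.618 RPKM in WT (n = 5) and 4.27 ± 0.15 in Gcg KO (n = 4), without overlap. There the log2 fold change was 0.59 ± 0.13 and passed (limma, adjusted p = 0.0448), as it did over the 12 libraries with a covariate for the 3 (0.52 ± 0.12, adjusted p = 0.0265). Over all alternatives the adjusted p of Foxa1 ran from 0.0265 to 0.525. In the 9-library fit 2 of the 40 factors passed, Foxa1 and Klf15, where 2.65% of 11284 genes did, and with the covariate the same 2 passed, where 5.17% of 11347 did. Both genes also separate the 3 libraries from the 9, so leaving out or marking the 3 lowers their spread. These calls therefore rest on a grouping made with earlier results known. Foxa1 lies on chromosome 12 from 57540628 to 57548029.

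Foxa2 was described after its values were seen. Its level was 15.4 to 17.3 RPKM in the 3 libraries and 2.64 to 5.45 RPKM in the other 9, of either genotype. In WT the lowest, median and highest values were 3.41, 4.93 and 17.3 RPKM, and in Gcg KO 2.64, 3.98 and 15.7 RPKM. Its log2 fold change was -0.02 (95% confidence interval -1.04 to 0.99, adjusted p = 0.991), and in the 9 libraries -0.41 (-0.74 to -0.08, adjusted p = 0.205). Neither passed, and without the 3 libraries the sign of Foxa2 was opposite to that of Foxa1.

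Onecut1, which encodes HNF6, a cut-homeobox factor of hepatocytes and bile ducts, varied most of the 40 and was also chosen after its values were seen. Its WT values were 1.72, 5.96 and 18.3 RPKM at the lowest, median and highest, and its Gcg KO values 1.16, 4.03 and 21.8 RPKM. High values were those of WT 6 (18.3), Gcg KO 11 (21.8) and Gcg KO 12 (21.7), while Gcg KO 10 had 5.37 RPKM, so the pattern of Foxa1 and Foxa2 was shared only in part. Cholangiocyte markers without Spp1 were at 10.3, 9.32 and 10.1 RPKM in the 3 libraries high in Onecut1, within the range of the others, while with Spp1 they summed to 24.9, 255 and 49.6 RPKM. Their part in the Onecut1 values was not tested. The interval of its log2 fold change ran from -1.66 to 1.59 around -0.03. A noncoding RNA gene on the same strand, Gm20649, shares 52.8% of its exon bases in GENCODE, and the sources used here do not state how shared reads were assigned.

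**Figure D3:**
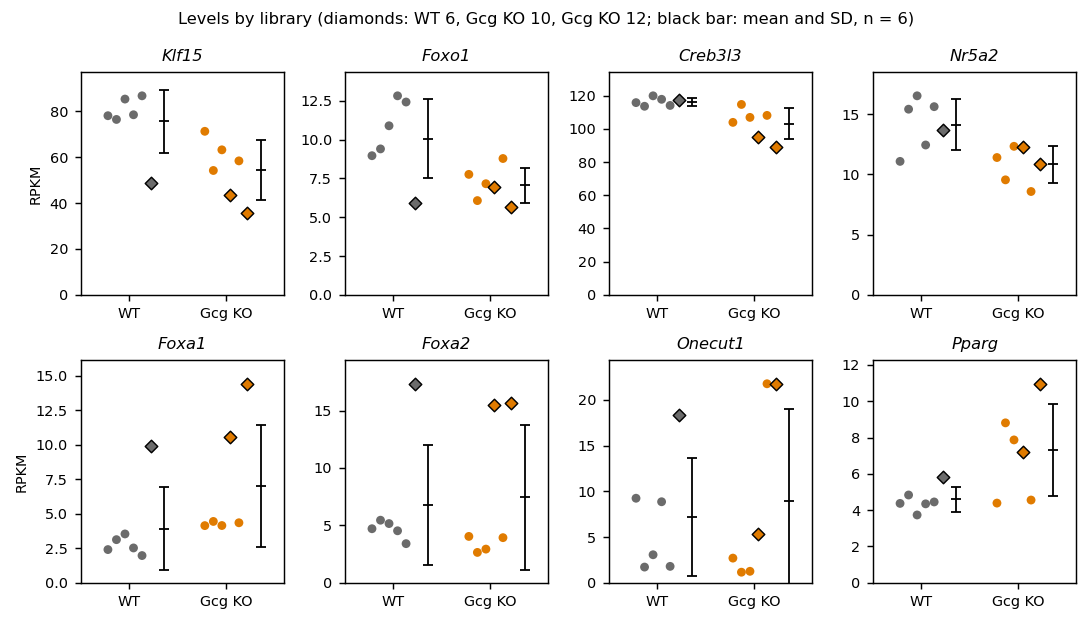
RPKM of 8 factors in each library, grey for WT and orange for Gcg KO, with a black bar for the mean and SD of each group (n = 6, the lower end of the bar for Onecut1 in Gcg KO falls below 0 and is not drawn). Diamonds mark WT 6, Gcg KO 10 and Gcg KO 12. In Foxa1 and Foxa2 the 3 diamonds lie above all circles, and in Klf15 the 3 lie below all circles. In Klf15 and Foxo1 the grey circles lie above the orange circles.

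Klf15 encodes a Krüppel-like factor that promotes amino acid breakdown and glucose production in fasting. Its RNA was lower in Gcg KO without passing over all 12 libraries. It passed in the 9, a grouping made with earlier results known. The 250 bases upstream of its RefSeq start (chr6:90462326-90462575, plus strand) are shown because Klf15 passed under more alternatives than any other factor, with motif matches in capitals. They hold the E-box CACGTG starting at -228 and -172, and TGACG, which is the first part of the cAMP response element, starting at -78 and, on the other strand, at -6.
Klf15: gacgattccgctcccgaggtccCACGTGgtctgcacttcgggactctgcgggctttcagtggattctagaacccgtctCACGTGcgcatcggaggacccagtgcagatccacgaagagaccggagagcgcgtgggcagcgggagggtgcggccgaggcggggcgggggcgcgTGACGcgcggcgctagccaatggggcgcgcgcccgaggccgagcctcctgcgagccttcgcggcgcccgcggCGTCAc
An E-box was found in 6.02% and TGACG in 17.8% of all RefSeq promoters of that length. The full cAMP response element TGACGTCA, bound by CREB proteins and held by 1.55% of promoters, was not in this window. The start used lies inside the RefSeq span of Klf15, which begins at 90461043. The bases upstream of that outer end were not searched.

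WT libraries had a lowest, median and highest Klf15 level of 48.9, 78.4 and 86.8 RPKM, and Gcg KO libraries of 35.7, 56.4 and 71.3 RPKM. WT 6 was the low WT library, and the other 5 WT libraries lay at 76.5 RPKM or more, above all Gcg KO libraries. The lowest Gcg KO values were those of Gcg KO 12 (35.7) and Gcg KO 10 (43.6). The log2 fold change over the 12 libraries was -0.49 ± 0.17 (SE, 95% confidence interval -0.86 to -0.11, adjusted p = 0.164). In the 9 libraries Klf15 was 81.1 ± 4.68 RPKM in WT (n = 5) and 61.8 ± 7.33 in Gcg KO (n = 4), a log2 fold change of -0.39 ± 0.09 that passed (limma, adjusted p = 0.0410). With the covariate it was -0.37 ± 0.08 (adjusted p = 0.0146), and the call was also made without WT 6 alone. Over all alternatives its adjusted p ran from 0.0146 to 0.288. Klf15 was itself lower in the 3 libraries than in any of the 9, so leaving them out or marking them lowers its spread. Its SD in WT was 13.8 RPKM with WT 6 and 4.68 RPKM without it. The calls of Klf15 therefore rest on the grouping or on leaving out WT 6. The 9-library groups did not overlap for 3 of the 40 factors, Klf15, Foxa1 and Foxo1, where they did not overlap for 7.25% of 11284 genes. The neutrophil marker sum and Klf15 were both low in the 3 libraries, and the part of other cells in this was not tested. Klf15 lies on chromosome 6 from 90461043 to 90491803.

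Foxo1 encodes a forkhead factor that insulin signalling keeps out of the nucleus and that drives gluconeogenic genes in fasting. Its lowest, median and highest WT values were 5.90, 10.1 and 12.8 RPKM, and its Gcg KO values 5.64, 7.05 and 8.78 RPKM. WT 6 was again the low WT library, and the other 5 lay at 8.96 RPKM or more, above every Gcg KO library. Its log2 fold change over the 12 was -0.46 ± 0.16 (SE, adjusted p = 0.168). It was -0.52 ± 0.13 in the 9 libraries (adjusted p = 0.0689) and -0.38 ± 0.13 with the covariate (adjusted p = 0.129), and of all alternatives it passed only without WT 6 (adjusted p = 0.0183, against up to 0.294 under the others). Foxo1 lies on chromosome 3 from 52268337 to 52350109.

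Among the other factors of fasting, insulin and growth hormone signalling, Creb3l3 had the tightest WT values. Creb3l3 encodes CREBH, a membrane-bound factor released by cleavage that induces genes of triglyceride metabolism, and it is named here after its values were seen. WT values were 113.6, 116.5 and 119.9 RPKM at the lowest, median and highest, and Gcg KO values were 89.0, 105.4 and 114.7 RPKM. Gcg KO 8 alone lay within the WT range, and the other 5 Gcg KO libraries lay below it. This gave a log2 fold change of -0.18 ± 0.06 (SE, adjusted p = 0.155), and in the 9 libraries -0.10 ± 0.06 (adjusted p = 0.471). The lowest pair were Gcg KO 12 (89.0) and Gcg KO 10 (95.2), while WT 6 was at 117 RPKM.

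Foxo3, a relative of Foxo1 with roles in stress resistance, had 10.5 ± 3.47 RPKM in WT against 10.1 ± 3.73 in Gcg KO. Klf9, a glucocorticoid- and thyroid-responsive Krüppel-like factor, had 38.8 ± 9.10 and 39.7 ± 11.2 RPKM. Stat5b, the mediator of growth hormone signalling in male-biased liver genes, had 17.95 ± 3.504 and 19.6 ± 2.83 RPKM. These differences were small beside their SDs. Bcl6, a repressor that growth hormone lowers, had 14.7 ± 8.03 and 13.9 ± 7.70 RPKM, and its values spread 5.17-fold over the 12 libraries. Creb1 encodes the factor that protein kinase A phosphorylates when cAMP rises, and it was among the lower members at 2.08 ± 0.280 RPKM in WT against 2.23 ± 0.251 in Gcg KO. The interval of its log2 fold change ran from -0.12 to 0.29, and 4 Gcg KO libraries lay above the WT maximum.

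The receptors that sense lipids, sterols and drugs included the next smallest p. Pparg, the adipogenic PPAR, which is low in normal liver, had WT values of 3.73, 4.41 and 5.81 RPKM at the lowest, median and highest, and Gcg KO values of 4.39, 7.54 and 10.96 RPKM. It is described after its values were seen. In 4 Gcg KO libraries Pparg lay above the WT maximum, and in Gcg KO 7 and 11 it lay within the WT range. This gave a log2 fold change of 0.56 ± 0.19 (SE, adjusted p = 0.148), and it was 0.45 ± 0.19 in the 9 libraries (adjusted p = 0.284). Neither passed. Adipocyte markers were 0 for Lep and Ucp1 in every library and at most 0.138 RPKM for Adipoq and 0.0458 RPKM for Plin1. The 8 adipocyte markers summed to 129 to 171 RPKM in WT and 148 to 229 in Gcg KO. Most of each sum was Adipor2, at 117 to 187 RPKM over the 12 libraries, which did not pass (limma, adjusted p = 0.195). The sums therefore say little of the other markers. Cidec and Cfd, which are targets of PPARγ as well, rose. The part of fat cells in the Pparg values was not tested beyond this.

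Nr1i3 encodes CAR, a receptor that drugs activate and that induces Cyp2b genes. Its level was 40.4 ± 7.26 RPKM in WT against 49.0 ± 8.18 in Gcg KO, with a log2 fold change of 0.28 (95% confidence interval -0.01 to 0.56, adjusted p = 0.337). On the opposite strand Tomm40l, at a mean of 3.60 RPKM, shares 74.9% of the exon bases of Nr1i3. The value is therefore uncertain unless reads were counted by strand, which the sources used here do not state. Nr1i2 encodes PXR, the other drug sensor, and had 27.4 ± 3.56 and 26.0 ± 6.15 RPKM. Nr1h3 and Nr1h2 encode the oxysterol receptors LXRα and LXRβ. Nr1h3 had 38.5 ± 3.14 and 37.2 ± 2.87 RPKM, and Nr1h2 had 14.3 ± 0.955 and 13.7 ± 1.04 RPKM. Both LXR genes had narrow intervals of -0.19 to 0.10 and -0.21 to 0.07 on the log2 scale. Ppard, the broadly expressed PPAR, had 3.77 ± 1.44 RPKM in WT against 3.30 ± 1.03 in Gcg KO.

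Over the 12 libraries all 5 retinoid receptor genes had intervals within a 1.5-fold difference, as did 84.6% of all tested genes. In limma 0 of 5 passed, also without adjustment, against 3.87% and 15.7% of all tested genes, and 0 of so few is near these shares. Rxra, the main RXR of hepatocytes and the partner of most receptors above, had 77.6 ± 4.36 RPKM in WT against 76.0 ± 6.97 in Gcg KO. Rxrb had 9.55 ± 0.592 and 9.45 ± 0.626 RPKM, and its log2 fold change was -0.01 (95% confidence interval -0.15 to 0.12). Rxrg had 2.09 ± 0.189 and 1.94 ± 0.828 RPKM. Its log2 fold change was -0.15 over the 12 libraries and -0.38 in the 9 (95% confidence interval -0.72 to -0.05, adjusted p = 0.246 in limma). That interval reaches past 1.5-fold and does not cross 0, but the difference did not pass. The retinoic acid receptor Rara had 5.25 ± 0.818 RPKM in WT against 4.44 ± 0.714 in Gcg KO (adjusted p = 0.397).

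Rarb was the lowest of the 40. Its WT values were 0.768, 1.34 and 2.03 RPKM at the lowest, median and highest, and its Gcg KO values 0.710, 1.36 and 1.796 RPKM. The log2 fold change was -0.01 (95% confidence interval -0.44 to 0.43, adjusted p = 0.992), and it was -0.06 in the 9 libraries (adjusted p = 0.935). At this level counting error adds to the spread between libraries. Top2b, on the opposite strand at a mean of 9.16 RPKM, overlaps 34.1% of the exon bases of Rarb, so some of its reads may belong to Top2b if strand was not used. Rarb lies on chromosome 14 from 16430839 to 17082331.

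Among hormone receptors, 0 of 4 passed in limma, also without adjustment, where 3.87% and 15.7% of all tested genes did. A count of 0 among so few is near these shares. All 4 intervals lay within 1.5-fold, as did 84.6% of those of all tested genes. Nr3c1, the glucocorticoid receptor, had 13.8 ± 1.28 RPKM in WT against 14.3 ± 1.61 in Gcg KO. Thrb, the main thyroid hormone receptor of liver, had 8.75 ± 0.825 and 9.19 ± 1.22 RPKM. Thra, the other thyroid hormone receptor gene, had 4.97 ± 0.429 and 5.68 ± 1.20 RPKM, with 4 Gcg KO libraries above the WT maximum (adjusted p = 0.610). Nr1d1 on the opposite strand, at a mean of 18.6 RPKM, overlaps 5.7% of its exon bases. Esr1, the estrogen receptor alpha gene, had 2.96 ± 0.703 and 2.63 ± 0.394 RPKM.

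Of the orphan receptors, 0 of 4 passed in limma, also without adjustment, against 3.87% and 15.7% of all tested genes. With so few genes, 0 is near these shares. Rora, an activator of clock and lipid genes, had 11.8 ± 2.33 RPKM in WT against 10.4 ± 2.34 in Gcg KO. Esrra, which drives mitochondrial genes with PGC-1 coactivators, had 7.54 ± 1.22 and 6.48 ± 1.44 RPKM, and all 6 Gcg KO values lay below the WT median (adjusted p = 0.543). Nr2f6 encodes a repressive receptor and had 31.4 ± 1.91 and 32.9 ± 3.87 RPKM. Ocel1 on the opposite strand, at a mean of 2.10 RPKM, covers 54.4% of its exon bases. Nr2f2, which encodes COUP-TFII and is also expressed by venous endothelial and stellate cells, had 6.49 ± 2.11 and 5.98 ± 1.803 RPKM. For the PAR-type group, Nfil3, a repressor that competes with the PAR factors for D-box sites, had 25.6 ± 9.34 RPKM in WT against 18.8 ± 6.82 in Gcg KO (log2 fold change -0.42, 95% confidence interval -1.03 to 0.20, adjusted p = 0.544). Hlf, a PAR factor whose RNA varies less over the day than that of its relatives, had 6.50 ± 1.15 and 6.57 ± 1.48 RPKM.

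Some factors set the 3 libraries apart from the other 9. No test was made, since the 3 were grouped with earlier results known. In all 3, 6 of 40 were higher than in any of the 9 (15%, against 5.7% of all tested genes). They were Foxa1, Foxa2, Cebpa, Rxrb, Rxrg and Gata4. Another 6 were lower in all 3 (15%, against 1.7% of all tested genes), namely Nr1i2, Rora, Ppard, Foxo3, Klf15 and Nfil3. Nfil3 was at 10.7 to 12.6 RPKM in the 3 and 18.6 to 38.6 in the 9. Cebpa was at 113 to 122 RPKM in the 3 and 71.8 to 112 in the 9. Nr1i2 was at 17.2 to 22.5 RPKM in the 3 and 23.7 to 32.3 in the 9. These gaps were thus wide for Foxa1, Foxa2 and Nfil3, and narrow for Cebpa and Nr1i2.

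Promoters of 35 of the 40 factors were matched in the RefSeq table, and the motifs were searched on both strands of their 250 upstream bases. By gene, 11 of 35 held TGACG (31.4%, against 19.8% of all 27025 genes), 6 held the E-box (17.1%, against 6.86%), 4 held ATTGATT (11.4%, against 3.01%) and 3 held the forkhead motif (8.57%, against 3.54%). The E-box genes were Bcl6, Klf15, Nr1i3, Onecut1, Rara and Thrb. The ATTGATT genes were Foxa2, Hnf4a, Nr2f2 and Rxrg, and the forkhead genes were Foxa1, Klf9 and Rxrb. Hlf alone held the full cAMP response element, within which TGACG is counted as well. The D-box, as TTACGTAA or TTATGTAA, and the motifs named RORE and DR1 were in 0 of 35, against 1.1%, 0.525% and 0.0407% of all genes. Some genes have several RefSeq starts, and a match at any of them was counted, so genes with more starts had more chances of a match. For Klf15 and Foxa1 the start used lay inside the gene's RefSeq span, so the window was not upstream of the whole gene. The E-boxes of Rara and Thrb and the forkhead motif of Rxrb were at start 2 of these genes. The number of starts was not matched between the factors and all genes, so the shares do not show an excess of motifs.

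The other regulators and the target genes of the factors were counted on 17 lists, which were drawn up with earlier results of these data known, overlap one another in part and in 6 cases hold 1 or 2 of the 40 factors. Of 14 other nuclear receptors 0 passed in limma, where 3.87% of all tested genes did, with 4 at an unadjusted p below 0.05 (28.6%, against 15.7% of all tested genes). Of 26 coregulators 0 passed, with 6 at an unadjusted p below 0.05 (23.1%). Of 46 other hepatic transcription factors 1 fell (2.17%, against 1.92% of all tested genes), Atf5, a bZIP factor of the ATF4 family, from 124 ± 7.13 to 92.2 ± 2.62 RPKM (n = 6, adjusted p = 3.3e-04). The medians of these 3 lists were 0.01, 0.03 and 0.04 on the log2 scale, against 0.01 over all tested genes.

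Genes linked to KLF15 and to cAMP held most of the falls on these lists. On the list of 22 amino acid catabolic genes linked to KLF15, 15 fell (68.2%, against 1.92% of all tested genes), 0 rose and 7 did not pass, with a median log2 fold change of -0.64, and all 22 values were below 0. The largest falls were those of Got1, Oat and Gls2, which handle glutamate, ornithine and glutamine (log2 fold changes of -3.10, -2.37 and -2.31). In the 9 libraries, 14 of the 22 fell. On the cAMP list of 23 genes, 8 fell (34.8%), 0 rose and 15 did not pass, with a median of -1.01. Beside genes of amino acids, the urea cycle and gluconeogenesis, this list holds signalling genes and transcription factors such as Sik1, Nr4a1, Crem and Per1. Most of its falls were in amino acid and urea cycle genes. Pde4b fell as well, while Pck1, G6pc, Ppargc1a, Nr4a1, Sik1, Crem and Per1 did not pass. The lists share genes, and 5 of the 8 that fell on the cAMP list (Ass1, Cps1, Gls2, Got1 and Sds) are also among the 15 that fell on the KLF15 list. Beside Got1 and Gls2, Sds, serine dehydratase, completed the 3 largest falls of the cAMP list (-2.13). Over the same libraries the log2 fold change of Klf15 was -0.49 and that of Creb1 was 0.09, and neither passed. Both lists were drawn up with earlier results of these data known. Their shares are thus not independent support and test nothing about KLF15 or cAMP.

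Among targets of the lipid receptors the genes that passed were higher in Gcg KO. Of 15 LXR targets 2 rose (13.3%, against 1.95% of all tested genes), Pltp, the phospholipid transfer protein (8.04 ± 1.48 to 19.9 ± 11.5 RPKM), and Acaca, acetyl-CoA carboxylase (11.6 ± 1.07 to 16.2 ± 3.15 RPKM), with a list median of 0.23. No LXR target passed under 9 of 23 alternatives, namely without a filter on low values and with any 1 of WT 1 to 5, Gcg KO 9, Gcg KO 10 or Gcg KO 12 left out. Of 28 PPAR targets 3 rose (10.7%), with a median of 0.17. They were Cfd, adipsin (0.263 ± 0.218 to 12.1 ± 10.4 RPKM), Vnn1, a pantetheinase (6.88 ± 6.01 to 21.4 ± 5.07 RPKM), and Cidec, a lipid droplet protein (0.518 ± 0.206 to 2.19 ± 1.38 RPKM). Cfd and Cidec are also adipocyte markers, and adipocyte-defining Lep and Ucp1 were at 0 as given above. Of 22 CAR and PXR targets 1 fell (4.55%, against 1.92% of all tested genes), Gstm3, a glutathione transferase with close paralogs that make its value uncertain (54.1 ± 6.86 to 38.5 ± 8.04 RPKM), and the list median was -0.10. No gene of that list passed under 12 of 23 alternatives, namely without a filter, without the trend, and with any 1 of the 6 WT libraries or of Gcg KO 7, 8, 9 and 11 left out.

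Targets of HNF4A and FOXO that passed were higher in Gcg KO, and those of CREB3L3 were split. Of 21 HNF4A targets 2 rose (9.52%, against 1.95% of all tested genes), Pklr, liver pyruvate kinase (47.0 ± 11.4 to 80.0 ± 20.7 RPKM), and Mttp, which loads lipid onto apolipoprotein B (85.8 ± 5.19 to 111 ± 5.18 RPKM), with a median of 0.05. Of 20 CREB3L3 targets 3 rose (15%) and 3 fell (15%, against 1.92% of all tested genes), with a median of 0.40. Cidec and Apoa4, an apolipoprotein (35.1 ± 10.2 to 63.1 ± 15.3 RPKM), had the largest rises, and Fads1, a desaturase (120 ± 10.1 to 81.0 ± 13.8 RPKM), the largest fall. Of 23 FOXO targets 3 rose (13%) and 0 fell, with a median of 0.03. They were Txnip, an inhibitor of thioredoxin (19.4 ± 11.8 to 62.5 ± 34.4 RPKM), Sesn1, a sestrin (log2 fold change 0.42), and Mttp.

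Of 12 thyroid hormone receptor targets 2 rose (16.7%, against 1.95% of all tested genes), with a median of 0.39. They were Me1, malic enzyme (35.99 ± 17.95 to 83.0 ± 20.7 RPKM), and Serpina7, thyroxine-binding globulin (9.68 ± 3.27 to 23.3 ± 6.86 RPKM). Of 16 glucocorticoid receptor targets 0 passed in limma, 4 had an unadjusted p below 0.05 (25%, against 15.7% of all tested genes), and the median was -0.33. Of 11 retinoic acid receptor targets 1 fell (9.09%, against 1.92% of all tested genes), Stra6l, a retinol-binding protein receptor (60.8 ± 3.31 to 46.7 ± 4.67 RPKM), with a median of -0.01. It was not called in the 9 libraries. Of 21 STAT5 targets of male liver 1 rose (4.76%) and 2 fell (9.52%), with a median of 0.03. The rise was in Mup20, a major urinary protein whose value is uncertain because of its paralogs (5928 ± 1104 to 15550 ± 4652 RPKM), and the falls were in Elovl3, a fatty acid elongase (380.4 ± 58.3 to 228 ± 65.1 RPKM), and Susd4, a complement inhibitor (17.4 ± 1.21 to 11.3 ± 1.15 RPKM). Of 9 female-biased genes that BCL6 represses 1 rose (Rtn4, log2 fold change 1.09) and 1 fell (Cyp17a1, -2.14), each 11.1% of the list, with a median of 0.28. Of 17 PAR bZIP and E4BP4 targets 0 passed in limma, with 4 at an unadjusted p below 0.05 (23.5%) and a median of -0.13.

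**Figure D4:**
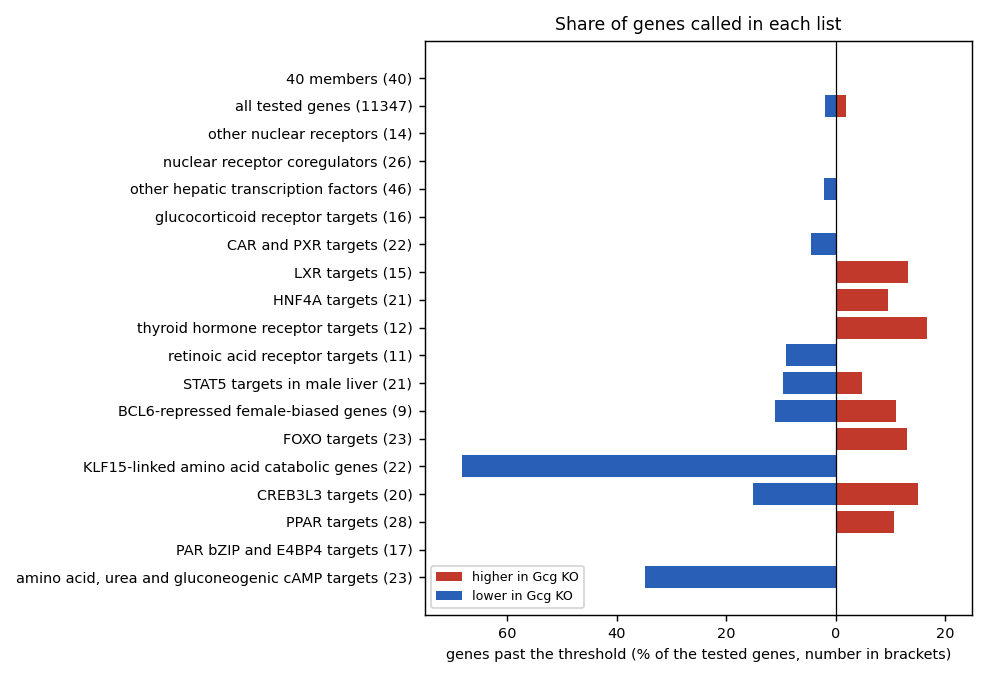
Share of the tested genes of each list (number in brackets) that passed the adjusted threshold of 0.05, higher in Gcg KO in red and lower in blue, with 0% in the middle and percent running outwards on both sides. The 40 factors have no bar, all tested genes have 1.95% higher and 1.92% lower, and the list linked to KLF15 has 68.2% lower. The lists were drawn up with earlier results of these data known.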

How the data were processed

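The authors deposited 1 table of RPKM values for 12 mouse liver libraries, 6 WT and 6 Gcg KO, grouped by the genotype in their titles. That unit is given by the table's name and fits its values. CASAVA 1.8.2, FastQC and the build GRCm38 are named per the submitters' processing notes. The aligner, counting tool, annotation, use of strand and treatment of reads that match several genes were not given in the sources used here. Of 24475 gene identifiers, 24375 (99.6%) matched a RefSeq table of GRCm38, which gave positions (counted from 1), and exon overlaps came from GENCODE annotation of the same build. Promoters came from RefSeq (GRCm38.p6). Depth was read from the smallest step in the low values, so it is an estimate.

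Log2(RPKM + 0.5) was compared between Gcg KO and WT by a two-sided test in limma 3.58.1 (R 4.3.3), with a trend of variance on mean level and without covariates, over the 11347 genes whose mean RPKM reached 0.5. P-values were adjusted by Benjamini-Hochberg over all of these, with a threshold of 0.05. Fold changes are on that log2 scale and understate changes of low genes. Levels are means ± SD of RPKM. The procedure was also run on simulated data, and the outcome is not given here. The noise was drawn separately for each gene, so the simulation lacked the pattern shared by WT 6, Gcg KO 10 and Gcg KO 12. Alternatives changed the pseudocount, filter, scaling, trend, weights and empirical Bayes step, left out each library, left out WT 6, Gcg KO 10 and Gcg KO 12, or marked these 3 with a covariate. Pairs of libraries correlated (log2 scale) at 0.970 to 0.989 in the same group and at 0.967 to 0.985 across groups, and 0 pairs were identical.

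The factors, gene lists, motifs and alternatives were chosen with earlier results of these data known, the 3 libraries included, so no list is independent support. Genes given by library were those past the threshold or without overlap, Hnf4a and Klf15, the highest and lowest, and those called under an alternative, and up to 3 called genes of each list were named. Foxa2, Onecut1, Creb3l3 and Pparg were added after their values were seen.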

Additional observations from a re-analysis of the deposited data

Results flagged for a closer look

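Within each genotype of 6 libraries, a factor was marked where its highest or lowest value lay far from the nearest other value, with a gap, as a share of the group's whole range, above Dixon's 95% critical value. This was so in 9 of the 80 groups examined. Chance marks about 1 group in 20 where values are independent and normally distributed. These RPKM values were not shown to be so and come from the same libraries, so the count does not show an excess. WT 6 held 4 of the 9. There Foxa1 was at 9.91 RPKM (next highest WT value 3.54), Foxa2 at 17.3 RPKM (next 5.45) and Gata4 at 8.002 RPKM (next 5.10), while Klf15 was the lowest at 48.9 RPKM (next lowest 76.5). In the other WT libraries, Rxra was lowest in WT 2 at 69.0 RPKM (next 77.3) and Creb1 was lowest in WT 4 at 1.55 RPKM (next 2.02). In Gcg KO, Nr1h3 was highest in Gcg KO 12 at 42.8 RPKM (next 37.8), Thrb in Gcg KO 7 at 11.5 RPKM (next 9.23) and Klf9 in Gcg KO 11 at 62.3 RPKM (next 37.1).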

How the results depend on the processing

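Under 23 alternatives, 36 of the 40 factors were called under none, and 8 of 918 combinations of a factor and an alternative gave a call. The count of factors called was 0 of 40 in limma over 12 libraries. It was 1 with library weights (Nr5a2), where 593 of all 11347 tested genes were called. It was 2 (Foxa1 and Klf15 both times) with a covariate for WT 6, Gcg KO 10 and Gcg KO 12 and in the other 9 libraries. There 587 of 11347 and 299 of 11284 genes were called. The other 8 fixed alternatives gave 0. Leaving out 1 library gave 0 to 2 factors. Without WT 1 it was 1 (Nr5a2), where 349 of 11352 genes were called. Without WT 6 it was 2 (Klf15 and Foxo1), where 417 of 11356 genes were called. With so few factors called, these counts are not read as a result about the factors. Over all tested genes, leaving out 1 library gave 277 (without WT 3) to 471 (without Gcg KO 11) calls, against 439. Signs were constant for 23 factors and changed somewhere for 17, all of them without a call. With the covariate, log2 fold changes of opposite sign were 0.115 for Bcl6, -0.0039 for Cebpa and 0.110 for Foxo3. In the 9 libraries they were 0.0252 for Foxo3, 0.0489 for Nr1i2, -0.0330 for Nr3c1 and 0.0275 for Rxra. Hlf was -0.0241 with quantile normalization, -0.0140 with median scaling, -0.0292 with library weights, -0.0192 with the covariate and -0.0336 in the 9 libraries. Leaving out 1 library moved Hnf4a between -0.0452 and 0.0793, Foxa2 between -0.30 and 0.28, Onecut1 between -0.44 and 0.32, Prox1 between -0.163 and 0.0546, Cebpa between -0.0052 and 0.15, Nr1i2 between -0.167 and 0.0111, Nr2f2 between -0.232 and 0.0234, Rxrb between -0.0417 and 0.0056, and Rarb between -0.0959 and 0.103. It moved Thrb between -0.00015 and 0.10, Ppard between -0.27 and 0.0024, Foxo3 between -0.255 and 0.0867, Klf9 between -0.11 and 0.11, Bcl6 between -0.33 and 0.12, and Hlf between -0.0646 and 0.0865. The cause was not tested. Calls on the list linked to KLF15 numbered 13 to 15 over the alternatives and on the cAMP list 8 to 11, while those on the LXR list numbered 0 to 4 and on the CREB3L3 list 3 to 9. No paired analysis was possible because the groups share no replicate number.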
